A study of Mus musculus with 12 samples.

Results

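Glycolysis and the response to low oxygen were followed through 41 named genes in chondrocytes of the E15.5 mouse forelimb zeugopod, the segment that holds the radius and ulna. The genes were chosen by symbol from a table of 36186 gene rows, and each of the 41 has exactly 1 row. The set holds 2 glucose transporters, 8 enzymes of the hexose phase of glycolysis, 6 enzymes of the triose phase, 2 enzymes that set the level of fructose-2,6-bisphosphate, 5 genes for handling pyruvate and lactate, 6 genes for sensing oxygen and 12 targets of the hypoxia response. Levels are NRPKM, read numbers scaled to gene length and library size (RPKM) with a further normalization between libraries by the authors, so they are per length. Multiply aligned and duplicate reads had been removed and the further normalization is not described, so levels set beside each other between genes are approximate. A filter kept rows that reached 5 NRPKM in 3 or more of the 12 libraries. It was passed by 38 of the 41 genes, and *Slc2a3*, *Pfkfb4* and *Adm* are described by their levels only.

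The 12 libraries come from 4 groups of 3 on a mixed 129 and CD-1 background. WT cells of 3 compartments of the growth cartilage were laser captured, resting, proliferative and hypertrophic, and the labels name the last of these hyperproliferative. The fourth group is *aadd*, homozygous for frameshift mutations in the first exons of *Hoxa9*, *Hoxa10*, *Hoxa11*, *Hoxd9*, *Hoxd10* and *Hoxd11*. The mutant cartilage was captured as a whole chondrocyte population and carries the label resting, so it was set against WT resting, and compartment and genotype cannot be told apart in it. Capture along the edge of the cartilage can bring in some perichondrium.

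Glycolysis splits glucose into pyruvate, and chondrocytes turn much of that pyruvate into lactate, because growth cartilage has no blood vessels and is short of oxygen. In low oxygen the hydroxylases encoded by the *Egln* genes stop marking the HIF alpha subunits for destruction by the VHL protein. The alpha subunit, from *Hif1a* or *Epas1*, then pairs with the *Arnt* product at the hypoxia response element and raises transcription of glucose transporters, glycolytic enzymes, lactate and proton exporters and carbonic anhydrases. HIF signalling is known for keeping chondrocytes alive in the centre of the growth plate.

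The core of the hypoxia response element was looked for in RefSeq promoter windows of build GRCm38.p6, each 250 bases before to 50 after a transcription start. The letters searched were ACGTG and GCGTG on both strands, which read CACGT and CACGC on the opposite strand, and the palindrome CACGTG counts as 2 overlapping matches. Of the 41 genes 37 have a window, with no entry for *Slc2a3*, *Epas1*, *Bnip3l* and *Ndrg1*, and 31 of the 37 (83.8%) hold at least 1 match in at least 1 window. Over all genes with a window the share was 46.7% (12628 of 27025). Matches were most frequent in a window of *Ldha*, with 7, while *Gpi1*, *Tpi1*, *Eno2*, *Vhl*, *Car12* and *Vldlr* hold none in the windows searched. Short stretches are shown for genes that the comparisons below turn on and for *Ldha*, 5′ to 3′ on the strand of the gene, with matches in capitals.
Car9, chr4:43506996-43507025, plus strand: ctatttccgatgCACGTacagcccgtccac
Slc16a3, chr11:120949031-120949060, plus strand: gcagcggtgACGTGcgcgggggACGTGccg
Slc2a1, chr4:119108684-119108713, plus strand: CACGCctctcagagtcccgccccggACGTG
Bnip3, chr7:138909587-138909646, minus strand: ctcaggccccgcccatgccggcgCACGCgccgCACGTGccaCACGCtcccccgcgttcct
Pdk1, chr2:71873104-71873223, plus strand: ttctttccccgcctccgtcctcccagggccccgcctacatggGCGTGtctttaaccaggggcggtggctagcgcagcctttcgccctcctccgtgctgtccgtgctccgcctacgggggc
Ldha, chr7:46845684-46845803, plus strand: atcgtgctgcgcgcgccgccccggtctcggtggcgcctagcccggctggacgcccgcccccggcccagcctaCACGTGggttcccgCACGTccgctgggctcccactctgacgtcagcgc
The 2 next stretches are shown for contrast, since they hold none of these letters in genes that differed widely between compartments.
Car12, chr9:66713566-66713685, plus strand: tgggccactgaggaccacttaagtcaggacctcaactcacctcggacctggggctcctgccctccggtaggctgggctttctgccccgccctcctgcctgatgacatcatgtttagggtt
Vldlr, chr19:27216364-27216483, plus strand: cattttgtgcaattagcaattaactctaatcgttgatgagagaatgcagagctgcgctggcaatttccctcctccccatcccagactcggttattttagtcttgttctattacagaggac
The stretches of *Car9*, *Slc16a3* and *Slc2a1* overlap exons that GENCODE M21 annotates for longer transcripts of the same genes. A match describes the letters in a window and was not measured as a bound site.

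Depth, read from the step that 1 read makes in low values, lay between 1890000 and 3240000 reads per library with a median of 2590000. As a sum, though not each alone, markers fit the hypertrophic label. The summed level of 10 hypertrophic chondrocyte genes ran from 1220 to 2594 NRPKM in the WT hypertrophic libraries and reached at most 718 elsewhere. The hypertrophic libraries were not alike. In replicates 2 and 3 most of the summed level came from *Spp1* and from *Mmp13*, a collagenase of late hypertrophic cells. *Mmp13* reached 735 and 661 NRPKM in replicates 2 and 3 but 3.05 in replicate 1, and *Spp1* 1083 and 979 but 24.1. *Col10a1* went the other way, at 264 NRPKM in replicate 1 and 166 and 221 in replicates 2 and 3. *Ihh* was at 56.3 NRPKM in replicate 1 but at 9.54 and 15.3 in replicates 2 and 3, against 20.1 to 40.5 in proliferative libraries. Of the 10 hypertrophic chondrocyte genes, 3 were higher in replicates 2 and 3 than in the other 10 libraries. Replicates 2 and 3 also held the highest level of all 12 libraries for 9 of 10 endothelial, 9 of 10 osteoclast, 4 of 10 macrophage, 5 of 8 erythroid and 7 of 10 osteoblast markers, while the summed level of 10 cartilage matrix genes was 2998 NRPKM in replicate 1 and 716 and 1049 in replicates 2 and 3, against 2486 to 5142 elsewhere. Values of the 41 genes are therefore given for hypertrophic replicate 1 apart from replicates 2 and 3. The cell cycle genes did not set the proliferative libraries apart, with summed levels of 314 to 396 NRPKM beside 351 to 457 in WT resting. Transcripts of the mutated genes stay measurable in *aadd*, where *Hoxd11* lay between 25.1 and 35.4 NRPKM and *Hoxa11* between 5.17 and 11.1, against 4.34 to 7.31 and 11.3 to 30.5 in WT resting, and a frameshift does not remove the transcript from this measure. In tissue samples of this kind fewer cells of a type and less RNA per cell cannot be told apart.

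The 41 genes spanned a wide range of levels. *Ldha*, the lactate dehydrogenase subunit that favours lactate, had the highest level, with a mean of 231 NRPKM over the 12 libraries, followed by *Gapdh* at 203, *Pgam1* at 157, *Tpi1* at 127, *Pgk1* at 112 and *Aldoa* at 107. The scarcest gene was *Adm*, a vasodilator peptide gene with 0 to 2.68 NRPKM, which is at most about 12 reads in any library. The glycolytic enzymes with *Ldha*, 15 genes without the fructose-2,6-bisphosphate enzymes and *Ldhb*, summed to 1181 ± 72.8 NRPKM in WT resting, 1237 ± 122 in WT proliferative, 1035 ± 104 in WT hypertrophic and 1061 ± 204 in *aadd* (mean ± SD, n = 3). These sums overlapped between neighbouring groups, with 1147 in hypertrophic replicate 1, 1018 in replicate 2 and 941.5 in replicate 3. *Pkm*, the pyruvate kinase gene, and *Eno3* are not among the 41 genes and not in these sums. *Pkm* was at 126 ± 12.7 NRPKM in WT resting, 123 ± 11.6 in WT proliferative, 88.5 ± 1.56 in WT hypertrophic and 95 ± 13.7 in *aadd*. Hypertrophic and *aadd* libraries did not overlap with resting ones for *Pkm*, and it passed the criteria given below in no comparison.

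**Figure D1:**
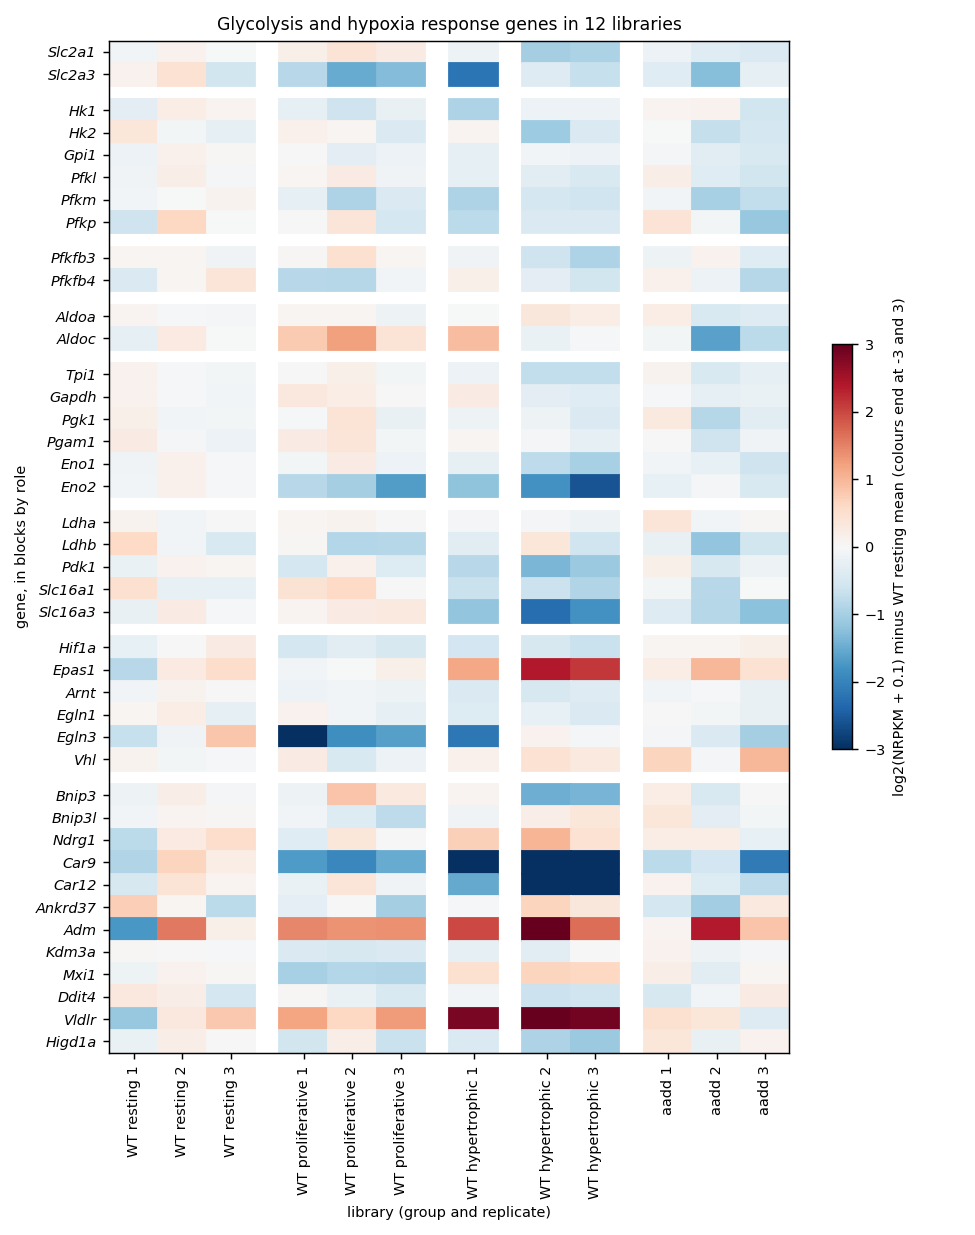
Each cell shows log2(NRPKM + 0.1) of a gene in a library minus the WT resting mean of that gene, with the 41 genes in rows in blocks by role and the 12 libraries in columns, WT hypertrophic replicate 1 standing apart from replicates 2 and 3. In hypertrophic libraries *Car9*, *Car12*, *Slc16a3* and *Eno2* are low and *Vldlr* and *Epas1* high, in proliferative libraries *Egln3* is low, and *Ldha* stays between 203 and 295 NRPKM in all 12.

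Of the paralogues, one usually held most of the level. *Slc2a1*, the basal glucose transporter, made up 93.5% to 99% of the summed level of *Slc2a1* and *Slc2a3* in every library. The share of *Aldoa* in the sum of both aldolase genes lay between 82.9% and 96.2%, and that of *Ldha* in the sum with *Ldhb* between 78.5% and 91.5%. Phosphofructokinase was more evenly divided, with the liver form *Pfkl* at 52.5% to 65.3% of the sum of *Pfkl*, *Pfkm* and *Pfkp*. The enolase share was steady within a group and differed between groups: *Eno1* held 81.9% to 82% in WT resting and 79.9% to 83.4% in *aadd*, but 88.6% to 93% in WT proliferative and 89.8% to 93.4% in WT hypertrophic. The alpha subunits of HIF also differed, *Hif1a* making up 80.1% to 90.6% of the sum with *Epas1* in the WT resting, WT proliferative and *aadd* libraries apart from 76.9% in *aadd* replicate 2, but 66.2%, 45.8% and 48.2% in hypertrophic replicates 1, 2 and 3.

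Limma's moderated F test over all 4 groups gave an adjusted *P* under 0.05 for 10 of the 38 genes, which is 26.3%, beside 13.8% of all 10936 rows. These were *Slc2a1*, *Eno2*, *Pdk1*, *Slc16a3*, *Hif1a*, *Epas1*, *Car9*, *Car12*, *Mxi1* and *Vldlr*. Their adjusted *P* ran from 0.002 for *Mxi1* to 0.047 for *Slc2a1* (limma). Without hypertrophic replicate 1 the number was 17, 44.7% beside 28.1% of all rows in that setting. Without replicate 2 or replicate 3 of the same group it was 5, 13.2% beside 7.16% and 5.74%. *Vldlr* and *Ndrg1* passed the filter on low values only through the hypertrophic group, where they were highest. With a filter that had to be met whichever group was left out, chosen after seeing the data, 9 of 36 genes passed the F test, 25% beside 12.4% of 10040 rows. No hexose phase enzyme was among the 10. In the order resting, proliferative, hypertrophic, the group means stood in descending order in 13 of the 38 genes and in ascending order in 1 (*Vldlr*), and they were highest in proliferative in 14 and lowest there in 10. The shares over all rows tested were 22.4%, 20%, 24.7% and 33%.

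The first comparison asked how the genes differ between resting and proliferative WT chondrocytes. The criteria were passed by 3 of the 38 genes, a share near that of all rows. *Car9*, *Egln3* and *Eno2* were lower in proliferative cells, and no gene of the 41 was higher past the criteria. The limits were those of the study, a *P* not above 0.05, left unadjusted here, and a FC of 2 or more. These 3 of 38 genes are 7.89%, beside 5.53% of all rows tested, with 2.97% lower and 2.56% higher. None had an adjusted *P* under 0.05 in limma, beside 0.622% of all rows. An unadjusted *P* up to 0.05 was found for 8, 21.1% beside 17.1% of all rows, and with WT resting replicate 1 left out *Car9* alone passed the adjustment. The medians of the 38 log2 differences and of all rows were both -0.06. Under quantile normalization *Vldlr* joined the same 3 genes, higher in proliferative cells. No share of all rows is given for that setting. All 12 libraries in one fit gave 4 with 1 higher, 10.5% beside 5.05% of all rows in that fit.

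*Car9* encodes a carbonic anhydrase on the cell surface that hydrates CO2 outside the cell and is a classical HIF target. Its row (gene ID 230099, chr4:43507026-43513725 in mm10) held 11.1, 33.3 and 24.2 NRPKM in WT resting replicates 1, 2 and 3 and 6.32, 5.3 and 7.18 in WT proliferative. The groups did not overlap, resting replicate 1 standing nearest to the proliferative libraries. The difference, as log2 FC, was -1.72 ± 0.40 (SE; adjusted *P* = 0.14, limma). Its unadjusted *P*, as that of every gene called past the criteria, was not above 0.05. Here and below every FC compares 3 libraries with 3.

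*Egln3*, an oxygen-dependent prolyl hydroxylase that is itself induced by HIF, held 3.65, 5.42 and 10.7 NRPKM in WT resting and 0.488, 1.56 and 1.84 in WT proliferative. Every proliferative library lay below every resting one, and the proliferative values rest on about 3.4, 8 and 9.2 reads. Its log2 FC was -2.29 ± 0.56 (SE; adjusted *P* = 0.15, limma), and it was -1.67 with a pseudocount of 1. With the filter taken over the 6 libraries compared the gene was not tested.

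*Eno2*, the enolase known from neurons, held 12.5, 14.9 and 13.1 NRPKM in WT resting and 7.51, 6.58 and 4.13 in WT proliferative. All 3 proliferative libraries were below the resting range. This is a log2 FC of -1.18 ± 0.25 (SE; adjusted *P* = 0.11, limma). Without WT proliferative replicate 3 the value was -0.93, under the limit of a FC of 2.

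Among the genes that did not meet the FC limit, *Mxi1*, a MYC antagonist and hypoxia target, was 4.97, 6.11 and 5.67 NRPKM in WT resting and 2.76, 3 and 2.92 in WT proliferative, with no overlap. *Hif1a* was 45.6, 55.1 and 64.1 NRPKM in resting and 37.5, 42.8 and 38.4 in proliferative libraries. In all, 10 of the 38 genes did not overlap between these groups, 2 of them higher and 8 lower in proliferative cells. That is 26.3%, beside 24% of all rows, with 9.83% higher and 14.2% lower. The 2 higher ones were *Slc2a1*, at 82.8, 97.3 and 87.6 NRPKM in resting and 99.9, 119 and 106 in proliferative libraries, and *Aldoc*, at 7.94, 11.6 and 9.42 against 16.6, 22.7 and 12.7.

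**Figure D2:**
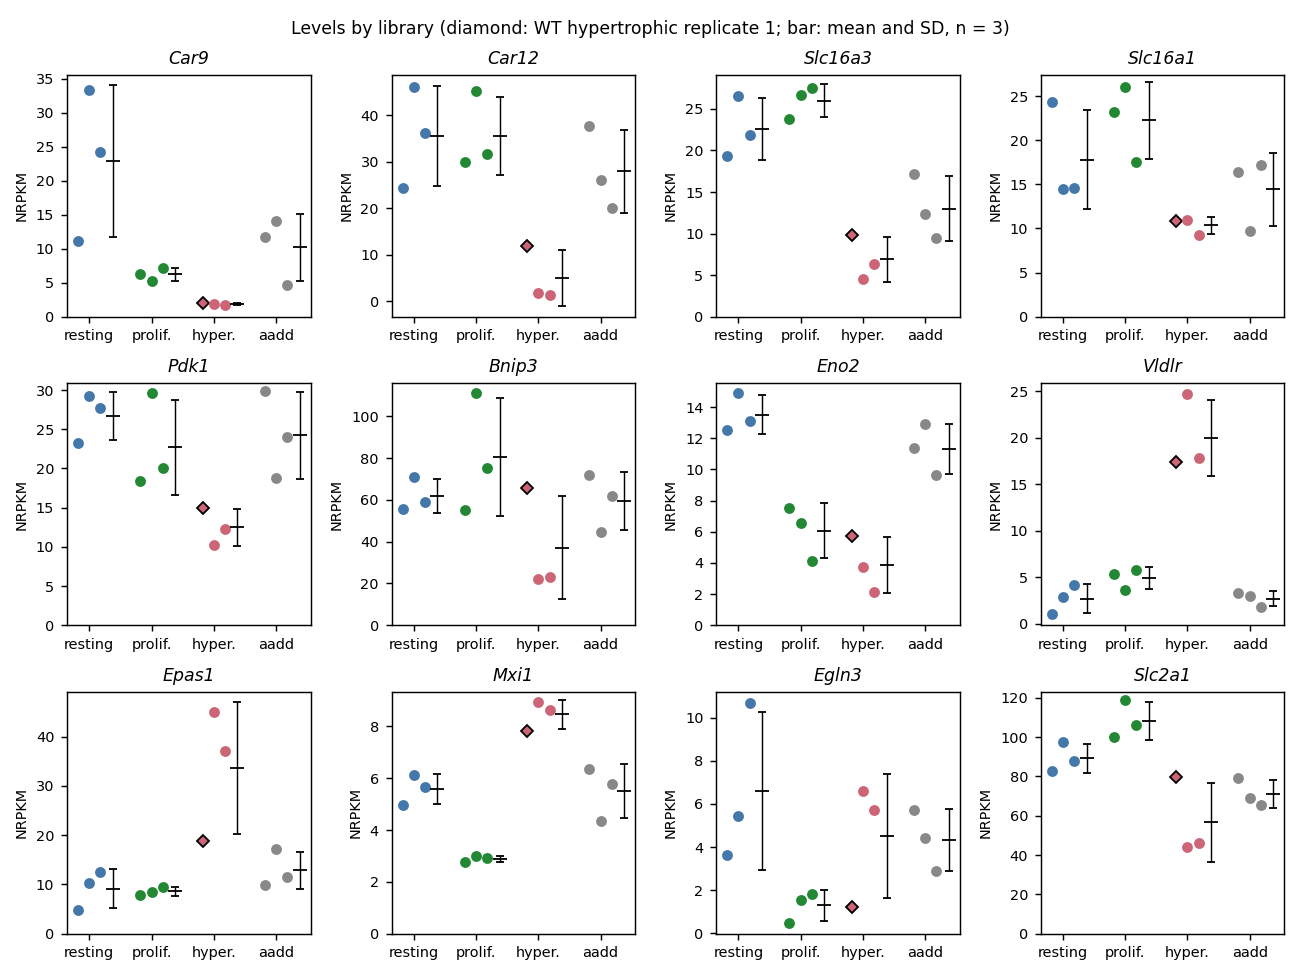
Levels of 12 genes in NRPKM (linear axis) are plotted for each library, 1 point a library, in WT resting, WT proliferative, WT hypertrophic and *aadd*, with the mean and SD (n = 3) beside each group and a diamond for WT hypertrophic replicate 1. The diamond lies with the other hypertrophic libraries for *Car9*, *Slc16a1* and *Mxi1* and apart from them for *Car12*, *Bnip3*, *Epas1*, *Egln3* and *Slc2a1*.

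Between proliferative and hypertrophic WT chondrocytes more of the genes passed. The lactate transporters *Slc16a3* and *Slc16a1*, both carbonic anhydrases and *Bnip3* fell past the criteria, and *Epas1*, *Mxi1* and *Vldlr* rose. No glucose transporter and no glycolytic enzyme passed with all 6 libraries. The 8 genes are 21.1% of 38, beside 9.67% of all rows tested, with 4.34% lower and 5.32% higher. None of them had an adjusted *P* under 0.05 in limma, and neither had any other row. In one fit of all 12 libraries 8 of the 38 genes did, 21.1% beside 6.45% of all rows. An unadjusted *P* up to 0.05 was found for 14 of the 38 genes, 36.8% beside 19.3% of all rows. Without hypertrophic replicate 1, 11 genes passed the criteria, 28.9% beside 18.4% of all rows in the same setting, the glucose transporter *Slc2a1*, the enzyme *Eno2* and the oxygen sensor *Egln3* being the 3 added. In that setting 13 had an adjusted *P* under 0.05 in limma, 34.2% beside 17.4% of all rows. With the filter met whichever group was left out, 7 of 36 passed the criteria, 19.4% beside 8.29% of all rows, *Vldlr* not being tested.

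*Slc16a3* encodes MCT4, the exporter of lactate from strongly glycolytic cells. Its row (gene ID 80879, chr11:120948484-120959000 in mm10) held 23.8, 26.7 and 27.5 NRPKM in WT proliferative replicates 1 to 3, 9.85 in hypertrophic replicate 1, and 4.54 and 6.28 in replicates 2 and 3. All 3 hypertrophic libraries were below the proliferative range, replicate 1 less far than the others. Its log2 FC was -1.97 ± 0.30 (SE; adjusted *P* = 0.11, limma). The locus overlaps *Csnk1d*, whose mean level was 31.4 NRPKM in proliferative and 38.7 in hypertrophic libraries, and whether strand was used in counting is not given in the sources used here.

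*Slc16a1*, which encodes the lactate transporter MCT1, held 23.2, 26 and 17.5 NRPKM in WT proliferative libraries, 10.8 in hypertrophic replicate 1 and 11 and 9.23 in replicates 2 and 3. The hypertrophic libraries agreed closely with each other and lay below the proliferative range. This gave a log2 FC of -1.08 ± 0.21 (SE; adjusted *P* = 0.12, limma), and -0.96 without WT proliferative replicate 2.

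*Car12*, the other carbonic anhydrase of the cell surface (gene ID 76459, chr9:66713686-66766845 in mm10), held 29.9, 45.2 and 31.6 NRPKM in WT proliferative libraries, 11.8 in hypertrophic replicate 1 and 1.7 and 1.34 in replicates 2 and 3, about 20 and 15 reads. Replicate 1 lay between the proliferative libraries and the pair of low ones. A log2 FC of -3.48 ± 0.80 (SE; adjusted *P* = 0.15, limma) resulted, and -4.45 without hypertrophic replicate 1. *Car9* held 1.95, 1.89 and 1.78 NRPKM in hypertrophic replicates 1, 2 and 3, below all proliferative libraries. Its log2 FC was -1.68 ± 0.18 (SE; adjusted *P* = 0.079, limma).

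*Bnip3*, a mitophagy receptor induced in low oxygen, held 55.4, 111 and 75.5 NRPKM in WT proliferative libraries, 65.6 in hypertrophic replicate 1, and 22.3 and 23.3 in replicates 2 and 3. Replicate 1 lay within the proliferative range, so the groups overlapped. The log2 FC was -1.25 ± 0.49 (SE; adjusted *P* = 0.25, limma). The call was lost without WT proliferative replicate 2 or 3 (-0.99 and -1.27), without hypertrophic replicate 2 or 3 (-0.98 and -1.01), without the filter on low values and with a replicate block.

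*Epas1*, the gene of HIF2 alpha (gene ID 13819, chr17:86753864-86833410 in mm10), held 7.84, 8.39 and 9.53 NRPKM in WT proliferative libraries, 18.9 in hypertrophic replicate 1, and 45 and 37 in replicates 2 and 3. All hypertrophic libraries were above the proliferative range. The rise was 1.87 ± 0.34 as log2 FC (SE; adjusted *P* = 0.12, limma). *Epas1* is known for high expression in endothelial cells, and the summed level of 10 endothelial markers was 9.55 to 25 NRPKM in proliferative libraries, 22.7 in hypertrophic replicate 1 and 286 and 209 in replicates 2 and 3. None of the 10 was at 0 in hypertrophic replicate 1, where *Cdh5* was at 7.3 NRPKM against 0.58 to 5.69 in proliferative libraries, and their part in the result was not tested.

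*Vldlr*, a receptor for lipoproteins and a hypoxia target (gene ID 22359, chr19:27217020-27254231 in mm10), held 5.38, 3.62 and 5.78 NRPKM in WT proliferative libraries, 17.4 in hypertrophic replicate 1, and 24.7 and 17.8 in replicates 2 and 3. *Mxi1* held 2.76, 3 and 2.92 NRPKM in proliferative libraries, 7.84 in hypertrophic replicate 1, and 8.93 and 8.63 in replicates 2 and 3. For both genes replicate 1 stood close to the other hypertrophic libraries and far above the proliferative ones. Outside the hypertrophic group *Vldlr* reached 5 NRPKM in 2 libraries. *Vldlr* was 4.01-fold higher (log2 SE 0.26; adjusted *P* = 0.089, limma). For *Mxi1* the log2 FC was 1.51 ± 0.16 (SE; adjusted *P* = 0.079, limma).

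*Slc2a1* fell just short of the FC limit, with 99.9, 119 and 106 NRPKM in proliferative libraries, 79.8 in hypertrophic replicate 1, and 44.1 and 46.1 in replicates 2 and 3. It did not overlap between the groups. *Egln3* was at 0.488 to 1.84 NRPKM in proliferative libraries and at 1.24 in hypertrophic replicate 1, but at 6.59 and 5.74 in replicates 2 and 3. Its FC of 3.02 exceeded the limit and its *P* did not pass. Among the 6 triose phase enzymes, the log2 difference was below 0 in all, with a median of -0.46, and *Tpi1* and *Eno1* did not overlap between the groups. *Tpi1* held 143, 161 and 133 NRPKM in proliferative libraries, 125 in hypertrophic replicate 1, and 84.9 and 84.2 in replicates 2 and 3. *Ldha* was at 235, 244 and 228 NRPKM in proliferative and 217, 219 and 203 in hypertrophic libraries, and *Pgk1*, a textbook HIF target, overlapped at 116, 158 and 102 against 107, 107 and 87.9. The 38 log2 differences had a median of -0.29, against 0.04 for all rows, and 27 were below 0. The libraries of the groups did not overlap for 17 of 38 genes, 5 higher and 12 lower in hypertrophic cells, which is 44.7%, beside 24.2% of all rows, with 13.3% higher and 10.9% lower.

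Over the whole course from resting to hypertrophic WT chondrocytes, *Car9*, *Car12*, *Eno2*, *Pdk1* and *Slc16a3* fell past the criteria, and *Vldlr* and *Epas1* rose. These are 7 of 38 genes, 18.4%, beside 13% of all rows tested, with 7.2% lower and 5.84% higher. With adjustment, *Car9*, *Eno2*, *Pdk1*, *Slc16a3* and *Vldlr* passed (5 of 38, 13.2%, beside 6.36% of all rows, limma). Without the filter on low values 1 of them did, *Car9*, 2.44% of 41 genes beside 1.31% of all rows. With the filter met whichever group was left out, 6 of 36 passed the criteria (16.7% beside 11.1%) and 4 had an adjusted *P* under 0.05 (limma; 11.1% beside 5.49%), again with *Vldlr* not tested. The number with an adjusted *P* under 0.05 depended on single libraries. It was 15 without hypertrophic replicate 1, 39.5% beside 24.2% of all rows in that setting, and 2 without WT resting replicate 1, 5.26% beside 3.64%. It was 1 without WT resting replicate 2 or 3 or hypertrophic replicate 2 or 3, 2.63% beside 1.43% to 1.77% of all rows. Both comparisons of hypertrophic cells use the same 3 hypertrophic libraries.

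*Car9* fell at each step, from 11.1, 33.3 and 24.2 NRPKM in WT resting to 1.95, 1.89 and 1.78 in WT hypertrophic libraries, where it rests on about 9.2, 12 and 11 reads. The groups stood far apart, and hypertrophic replicate 1 was as low as replicates 2 and 3. The log2 FC was -3.40 ± 0.40 (SE; adjusted *P* = 0.0093, limma), a 10.6-fold difference. *Car12*, at 24.4, 46 and 36.2 NRPKM in resting libraries, overlapped between resting and proliferative cells and was below both in hypertrophic libraries, with a log2 FC against resting of -3.46 ± 0.81 (SE; adjusted *P* = 0.06, limma). Without hypertrophic replicate 1 it was -4.42.

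*Slc16a3* held 19.3, 26.6 and 21.8 NRPKM in WT resting, so resting and proliferative libraries overlapped and the hypertrophic ones lay below both. Its log2 FC was -1.76 ± 0.31 (SE; adjusted *P* = 0.03, limma). *Pdk1*, the kinase that holds pyruvate back from the mitochondria and a HIF target (gene ID 228026, chr2:71873272-71903858 in mm10), held 23.3, 29.2 and 27.7 NRPKM in resting libraries, 14.9 in hypertrophic replicate 1, and 10.2 and 12.3 in replicates 2 and 3. The groups did not overlap. Its log2 FC was -1.10 ± 0.21 (SE; adjusted *P* = 0.035, limma), and -0.97 without hypertrophic replicate 2, which is under the FC limit.

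*Eno2* held 5.73, 3.76 and 2.14 NRPKM in hypertrophic replicates 1, 2 and 3, against 12.5 to 14.9 in resting libraries. Replicate 1 lay within the proliferative range and replicates 2 and 3 below it. The log2 FC against resting was -1.88 ± 0.35 (SE; adjusted *P* = 0.036, limma). *Vldlr* rose from 1.01, 2.9 and 4.17 NRPKM in resting to 17.4, 24.7 and 17.8 in hypertrophic libraries, with a log2 FC of 3.03 ± 0.50 (SE; adjusted *P* = 0.025, limma). *Epas1* was at 4.73, 10.2 and 12.5 NRPKM in resting libraries, all below hypertrophic replicate 1 at 18.9, and its log2 FC was 1.89 ± 0.47 (SE; adjusted *P* = 0.068, limma).

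*Hif1a* went the other way from *Epas1* in its levels, at 45.6, 55.1 and 64.1 NRPKM in resting and 37, 38.1 and 34.4 in hypertrophic libraries, with no overlap and a FC under 2. Its partner *Arnt* lay at 24.3, 28 and 26.2 against 19.1, 18.4 and 19.8, again with no overlap. *Higd1a*, a small mitochondrial protein gene induced in low oxygen, held 42.9, 56.3 and 49.2 NRPKM in resting libraries, 35.8 in hypertrophic replicate 1, and 25.7 and 22.7 in replicates 2 and 3. Of the 38 genes 29 had a log2 difference below 0, with a median of -0.44, against -0.02 for all rows. The groups did not overlap for 20 of the 38 genes, 4 higher and 16 lower in hypertrophic cells, which is 52.6%, beside 32% of all rows, with 14.1% higher and 17.8% lower.

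**Figure D3:**
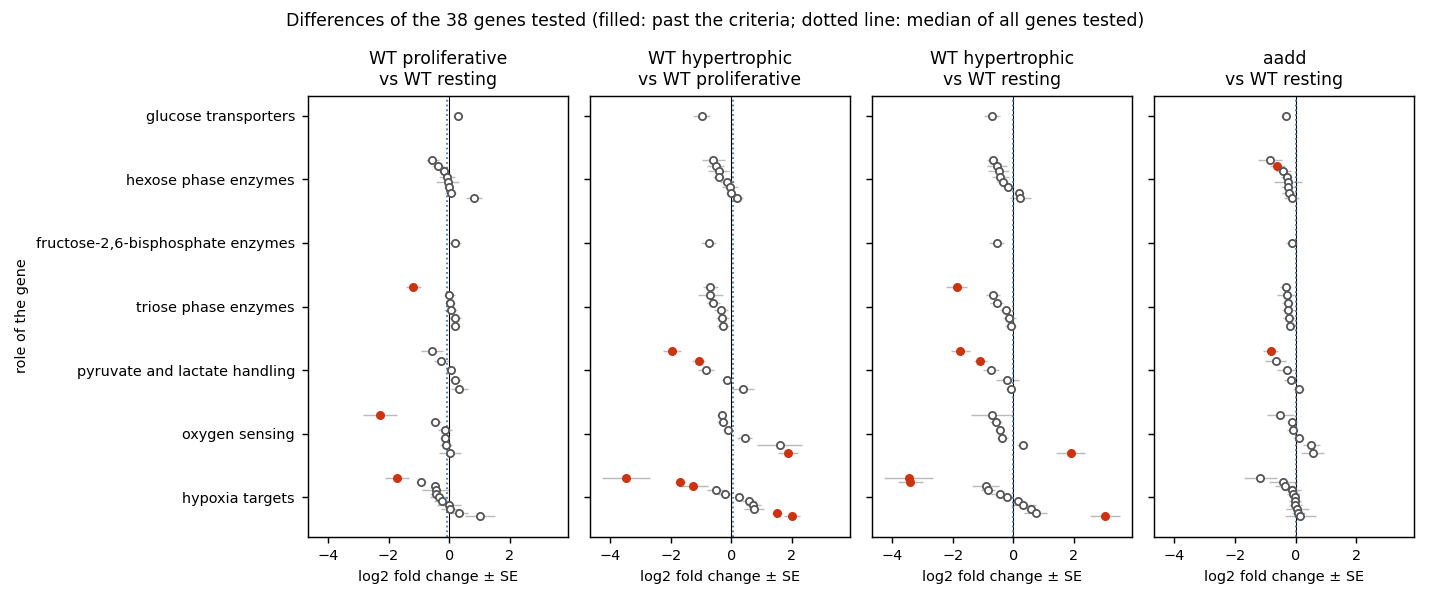
Log2 FC with its SE is plotted for the 38 genes tested in 4 comparisons on a shared axis, ordered by role, with filled points for genes past the criteria and a dotted line at the median of all rows tested. Filled points number 3, 8, 7 and 2 from left to right, and the widest difference is that of *Egln3* in the leftmost panel, of *Car12* in both hypertrophic panels and of *Car9* in that of *aadd*.

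Hypertrophic replicate 1 stood nearer to the proliferative libraries than replicates 2 and 3 did. Over the 38 genes its root mean square log2 distance to single libraries was 0.693 to 0.798 for the 3 proliferative ones, 0.831 for replicate 2 and 0.819 for replicate 3. Replicates 2 and 3 were 0.315 apart, and they lay 1.23 to 1.41 and 1.18 to 1.39 from single proliferative libraries. Replicate 1 was nearer to the proliferative mean, of 3 libraries, than to the mean of replicates 2 and 3 in 20 of 38 genes (52.6%), beside 63.6% of all rows. Replicate 1 fell above the 3 proliferative libraries for 5 genes, below them for 17 and within their range for 16, which is 13.2%, 44.7% and 42.1% beside 26.5%, 24.7% and 48.9% of all rows. Replicates 2 and 3 were both above for 11 genes, both below for 19 and both within for 3, which is 28.9%, 50% and 7.89% beside 29.7%, 25.3% and 19.8%. All 3 hypertrophic libraries lay above for 5 genes and below for 12, 13.2% and 31.6% beside 13.3% and 10.9%.

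The 5 genes above the proliferative range in every hypertrophic library were *Epas1*, *Ndrg1*, *Kdm3a*, *Mxi1* and *Vldlr*. *Ndrg1*, a differentiation and stress gene induced in low oxygen, was at 2.79, 4.66 and 3.68 NRPKM in proliferative libraries, 5.98 in hypertrophic replicate 1, and 7.42 and 5.05 in replicates 2 and 3, and it too passed the filter only through the hypertrophic group. *Kdm3a*, a histone demethylase and HIF target, was at 18, 16.9 and 18 NRPKM in proliferative and 20, 19.2 and 24.4 in hypertrophic libraries. *Egln3*, *Vhl*, *Bnip3l*, *Ankrd37* and *Aldoa* were above it in replicates 2 and 3 and within it in replicate 1, and *Hk1* was above it in the former and below it in the latter. *Bnip3l*, the other mitophagy receptor, was at 34.2, 27.5 and 21.4 NRPKM in proliferative libraries, 33.6 in hypertrophic replicate 1, and 42.5 and 47 in replicates 2 and 3, so in replicates 2 and 3 it lay above that range and *Bnip3* below. *Slc2a3*, a high affinity glucose transporter that did not pass the filter, was at 0.806 NRPKM in replicate 1 and at 3.04 and 2.46 in replicates 2 and 3.

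Of the 15 glycolytic enzymes with *Ldha*, replicate 1 was nearer to the proliferative mean in 10 and nearer to replicates 2 and 3 in 5 (*Pfkl*, *Pfkm*, *Pfkp*, *Pgk1* and *Ldha*). Over all rows tested replicate 1 was nearer to the proliferative mean in 63.6%, and 10 of 15 is near that share. *Gapdh* was at 254, 241 and 208 NRPKM in proliferative libraries and at 244 in hypertrophic replicate 1, but at 166 and 160 in replicates 2 and 3. *Hk2*, the inducible hexokinase, was at 20, 18.5 and 13.3 NRPKM and 18.9 in replicate 1, against 8.34 and 12.9. *Aldoc* was at 18.2 NRPKM in replicate 1 and at 8.27 and 9.29 in replicates 2 and 3. *Pfkfb3*, which makes the fructose-2,6-bisphosphate that activates phosphofructokinase, was at 17.8, 24.2 and 18 NRPKM in proliferative libraries, 15.8 in replicate 1, and 11.3 and 9.1 in replicates 2 and 3, so all 3 hypertrophic libraries were below that range. The endothelial, osteoclast, macrophage and osteoblast markers that were high in replicates 2 and 3, and the cartilage matrix genes that were low there, moved with the difference between replicate 1 and the others. The summed osteoclast markers were 1308 and 963 NRPKM in replicates 2 and 3, 70.3 in replicate 1 and at most 70.4 in the other 9 libraries, and the part of such cells in these results was not tested.

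**Figure D4:**
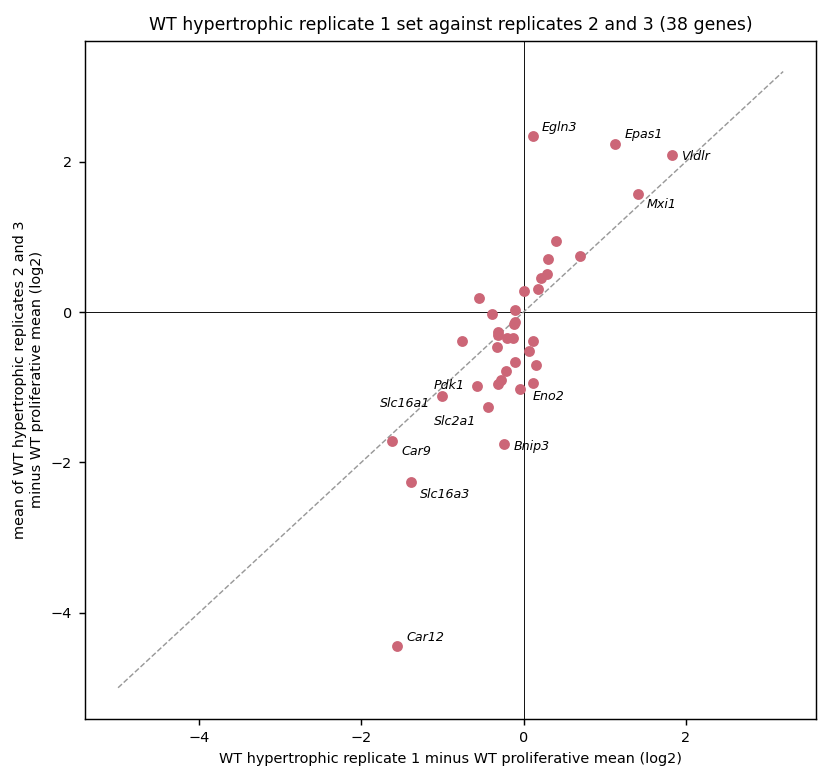
For the 38 genes tested, the log2 difference of WT hypertrophic replicate 1 from the WT proliferative mean (horizontal) is plotted against that of the mean of replicates 2 and 3 (vertical), with the dashed line marking equal differences. *Car9* (-1.62 and -1.71), *Mxi1* and *Vldlr* lie near the line, while *Car12* (-1.56 and -4.45), *Bnip3* (-0.24 and -1.76) and *Egln3* (0.11 and 2.34) lie far from it.

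Between *aadd* and WT resting 2 of the 38 genes passed the criteria, a share near that of all rows. *Slc16a3* and *Pfkm* fell past the criteria, with a FC limit of 1.5 in place of 2, and no gene rose. These 2 of 38 genes are 5.26%, beside 6.56% of all rows tested, with 2.78% lower and 3.78% higher. Neither had an adjusted *P* under 0.05 in limma, beside 0.119% of all rows, and no other of the 38 had an unadjusted *P* up to 0.05, which 9.58% of all rows had. Leaving out 1 library moved the number between 0 and 5. It was 0 without WT resting replicate 2, beside 5.44% of all rows in that setting, and 1 without *aadd* replicate 3, 2.63% beside 5%. Without *aadd* replicate 1 it was 5, 13.2% beside 8.08%, as *Aldoc*, *Hk2* and *Pgk1* joined.

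*Slc16a3* held 19.3, 26.6 and 21.8 NRPKM in WT resting and 17.2, 12.3 and 9.49 in *aadd* replicates 1, 2 and 3. All mutant libraries were below the resting range, replicate 1 closely so. Expressed as log2 FC the difference was -0.82 ± 0.25 (SE; adjusted *P* = 0.37, limma), and -0.70 without WT resting replicate 2, where the *P* limit was missed. *Pfkm*, the muscle form of phosphofructokinase (gene ID 18642, chr15:98092589-98132447 in mm10), held 12.4, 13.2 and 14.2 NRPKM in WT resting and 12.4, 6.59 and 7.89 in *aadd*. Mutant replicate 1 was level with a resting library. Its log2 FC was -0.61 ± 0.25 (SE; adjusted *P* = 0.51, limma). That call was lost without any of the 3 WT resting libraries, without *aadd* replicate 2 or 3, with a pseudocount of 1, with a replicate block and without the filter on low values. Its values then ran from -0.42 to -0.66. The locus overlaps *Senp1*, at a mean of 27.5 NRPKM in WT resting and 23.9 in *aadd*.

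For 31 of the 38 genes the log2 difference was below 0, with a median of -0.22, against 0.01 for all rows. Left-out libraries moved that number between 26 (without WT resting replicate 2) and 34 (without WT resting replicate 1 or *aadd* replicate 1). All 8 hexose phase and all 6 triose phase enzymes were below 0, although *aadd* replicate 1 often was not. *Pgk1* was at 134, 111 and 112 NRPKM in WT resting and at 146, 65.5 and 94.4 in *aadd*. *Aldoc* was at 7.94, 11.6 and 9.42 against 9, 3.01 and 5.42. In *aadd* replicates 1, 2 and 3 the macrophage markers summed to 19.4, 65.4 and 16.8 NRPKM, against 15.9 to 20.8 in WT resting. The erythroid markers summed to 61.6, 191 and 77.6 NRPKM, against 36.9 to 82.9. The hypertrophic chondrocyte markers were lower in *aadd*, at 62.4 to 101 NRPKM against 123 to 281. The part of these cells in the result was not tested. The only genes whose groups did not overlap were *Slc16a3* and *Slc2a1*, both lower in *aadd*, which is 5.26% beside 15.4% of all rows, with 7.34% lower and 8.08% higher. *Slc2a1* was at 82.8, 97.3 and 87.6 NRPKM in WT resting and 79.1, 69.2 and 65.3 in the mutant.

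The oxygen sensing genes overlapped between *aadd* and WT resting throughout. *Hif1a* was at 56.9, 56.9 and 61.2 NRPKM in the mutant, within the resting range and above every proliferative and hypertrophic library. *Epas1* was at 9.83, 17.1 and 11.6, and mutant replicate 2, with 17.1, also had the highest summed endothelial markers of the *aadd* libraries at 55.9 NRPKM, against 13.1 to 31.5 in WT resting. *Vhl* was at 13, 7.79 and 16.3 against 8.78, 7.76 and 8.02. *Car9* spread widely, at 11.8, 14.1 and 4.66 NRPKM, and its groups overlapped.

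*Eno2*, *Mxi1* and *Vldlr*, taken up after their values were seen, differed between WT compartments. *Eno2* was at 11.4, 12.9 and 9.67 NRPKM in *aadd*, above all proliferative libraries. *Mxi1* was at 6.36, 4.34 and 5.79, above all proliferative and below all hypertrophic libraries, and *Vldlr* at 3.29, 3.02 and 1.75, within the resting range. Over the 38 genes the root mean square log2 distance of *aadd* replicates 1, 2 and 3 was 0.291, 0.581 and 0.623 to the WT resting mean, 0.602, 0.764 and 0.685 to the proliferative mean and 1.09, 1.05 and 0.935 to the hypertrophic mean. Between single libraries, *aadd* replicates 1, 2 and 3 lay 0.338 to 0.562, 0.541 to 0.781 and 0.561 to 0.786 from the WT resting ones, which were 0.341 to 0.696 from each other.

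Other genes of the same pathways were taken from a list of 61, of which 60 have a row and 45 were tested. From resting to proliferative cells 3 of the 45 rose past the criteria and none fell, the 3 being *Lox*, which crosslinks collagen, *Siah2*, a ubiquitin ligase for prolyl hydroxylases, and *Hmox1*, heme oxygenase. *Lox* was at 13.2, 13.1 and 17.7 NRPKM in resting and 36.9, 27.7 and 91.3 in proliferative libraries. From proliferative to hypertrophic cells 4 rose and 3 fell, and from resting to hypertrophic cells 7 rose and 3 fell, 5 of them with an adjusted *P* under 0.05 (limma), 11.1% of the 45 beside 6.36% of all rows. The largest differences of the former were in *Pdk4*, a pyruvate dehydrogenase kinase like *Pdk1*, *Insig2*, which restrains sterol synthesis, and *Pygl*, glycogen phosphorylase. *Pdk4* was at 1.45, 1.56 and 1.16 NRPKM in proliferative libraries, 6.15 in hypertrophic replicate 1, and 14.7 and 11 in replicates 2 and 3, and it passed the filter only through these 3 hypertrophic libraries. *Insig2* was at 12.8, 11.1 and 12.1 NRPKM, then 25.8, and 73.7 and 61.1. *Pygl* was at 29, 51.1 and 41.8 NRPKM, then 23.9, and 5.24 and 8.13, so in all of these genes replicate 1 lay between the proliferative libraries and replicates 2 and 3. Outside the naming rule, and seen after the values, the other genes that rose were *Lox* and *Cited2*, and the others that fell *Plod2* and *Ak4*.

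Against resting cells the largest differences were in *Pgf*, a growth factor of the VEGF family, *Lox* and *Pdk4*. *Pgf* was at 0.647, 0.265 and 0.748 NRPKM in resting libraries and at 0.546 in hypertrophic replicate 1, within that range, but at 21.1 and 26.3 in replicates 2 and 3. It reached 5 NRPKM in these and 1 proliferative library only, so it passed the filter through the groups where it was high. *Lox* was at 105 NRPKM in hypertrophic replicate 1 and 148 and 203 in the others, a log2 FC of 3.33 ± 0.29 (SE; adjusted *P* = 0.0037, limma). Named after their values were seen, the other 4 with an adjusted *P* under 0.05 were *Pdk4*, *Insig2*, *Gbe1* and *Plod1*, and the 3 that fell were *Plod1*, *Plod2* and *Hif3a*. The osteoblast markers, summing to 1791, 2633 and 3907 NRPKM in hypertrophic replicates 1, 2 and 3 against 251 to 531 in WT resting, were high in the libraries where *Lox* was high. They summed to 699, 512 and 1345 NRPKM in proliferative replicates 1, 2 and 3 and to 219, 621 and 257 in *aadd*, where *Lox* was at 24.7, 60.3 and 38 NRPKM, and in both groups the highest sum and the highest *Lox* fell in the same library. In WT resting the sums were 251, 531 and 384 NRPKM, the highest of them in the library with the lowest *Lox*. Their part in the level of *Lox* was not tested. In *aadd* 3 of the 45 genes rose and 4 fell against WT resting, none with an adjusted *P* under 0.05 in limma and 7 with an unadjusted *P* up to 0.05, 15.6% beside 9.58% of all rows. The largest were *Pygl*, at 21.2 ± 4.29 NRPKM in WT resting and 5.64 ± 3.86 in *aadd* (mean ± SD, n = 3), *Ppp1r3c*, a targeting subunit for glycogen synthesis, and *Lox*. Named likewise after the fact, *Cited2* and *Wsb1* also rose and *Nfil3* and *Vegfa* also fell. As shares of the 45 genes these counts are 6.67%, 15.6%, 22.2% and 15.6%, beside 5.53%, 9.67%, 13% and 6.56% of all rows. Both hypertrophic counts include *Pdk4*, the one against resting also *Pgf*, and the *aadd* count *Nfil3*. Like *Pdk4*, *Nfil3* passed the filter only through the hypertrophic group, where it was highest. No count of the 45 genes is given with the filter met whichever group was left out, so these shares are descriptive only.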

How the data were processed

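RNA was laser captured from 10 μm sections, amplified and sequenced. The authors aligned to mm10 (TopHat is in the submitters' processing notes), removed multiply aligned, duplicate and low-quality reads and deposited RPKM values with a further normalization between libraries (NRPKM); that normalization and the use of strand are not given in the sources used here. The study speaks of independent sets of compartments, and *P* measures only the spread between these samples, which may be technical.

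The 10936 rows that reached 5 NRPKM in 3 or more libraries were analysed as log2(NRPKM + 0.1), the scale of every FC, with limma 3.58.1 in R 4.3.3, on the 6 libraries of each comparison. Benjamini-Hochberg adjustment covered all rows tested. An exact permutation test of 3 against 3 libraries cannot go below 0.1 and was not used. Tables were made in Python 3.11.15 with pandas 2.3.3 and numpy 2.4.6, and plots with matplotlib 3.10.9. The fits were tested on simulated data. Reads were approximated from the value of 1 read in 1889 single-exon rows and GENCODE M21 exon lengths. Replicate numbers were taken to pair WT resting with WT proliferative, as same-numbered deviations correlated across genes (*r* = 0.281, 0.179 and 0.198). The study lists the libraries elsewhere in another order, so the pairing rests on these correlations alone and limits what the replicate block shows.

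The members and lists were chosen with earlier results of these data known. A fold change and *P* are given for members past the criteria, and values for the others. Of the other pathway genes the 3 largest differences past the criteria are named by rule, and those named beyond them were chosen after their values were seen. Marker lists had 10 genes each for chondrocytes (cartilage matrix, hypertrophic), cell cycle, osteoblasts, osteoclasts, macrophages, erythroid and endothelial cells and skeletal muscle. No skeletal muscle marker was highest in both hypertrophic replicates 2 and 3. Alternatives tried were each library left out, a replicate block, a variance trend, one fit of all 12 libraries, quantile normalization, rescaling by the median of ratios, a pseudocount of 1, and either no filter or one over the 6 libraries. A filter that had to be met whichever group was left out was added after seeing the data.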

Additional observations from a re-analysis of the deposited data

How the results depend on the processing

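For the 20 log2 FC of members past the criteria, 279 of 297 values under the alternatives kept their direction and their side of the criteria, 18 kept the direction only and none reversed. Of the 18, 8 belonged to *Pfkm* (*aadd*), 6 to *Bnip3*, and 1 each to *Eno2* (proliferative against resting), *Pdk1*, *Slc16a1* and *Slc16a3* (*aadd*). With 1 library left out, the number past the criteria ran from 3 to 4 (proliferative against resting), 6 to 11 (hypertrophic against proliferative), 6 to 9 (hypertrophic against resting) and 0 to 5 (*aadd* against WT resting), beside 4.65% to 7.4%, 6.02% to 18.4%, 10.9% to 19.2% and 5% to 9.12% of all rows. The number with an adjusted *P* under 0.05 (limma) ran from 0 to 1, 0 to 13, 1 to 15 and stayed 0, and that of the F test from 5 to 17, beside 0.0914% to 0.485%, 0% to 17.4%, 1.43% to 24.2%, 0.0274% to 0.119% and 5.74% to 28.1% of all rows. In *aadd* 1 member passed with a pseudocount of 1 (5.94% of all rows) and 1 without the filter (5.82%). With all 12 libraries in one fit 3 members passed in *aadd*, 7.89% beside 4.83% of all rows. With a variance trend *Car9* joined *Slc16a3* and *Pfkm* in *aadd*, with no share of all rows given for that setting. Without the filter, the F test gave 6 and hypertrophic against resting 1 with an adjusted *P* under 0.05, 14.6% and 2.44% of 41 members beside 3.93% and 1.31% of all rows. All 12 libraries in one fit gave 1, 8 and 10 for the WT comparisons in the same order, 2.63%, 21.1% and 26.3% of 38 members beside 1.17%, 6.45% and 14.7% of all rows. With the replicate block, 2 members had an adjusted *P* under 0.05 for hypertrophic against resting, *Car9* as before and *Epas1* in place of *Eno2*, *Pdk1*, *Slc16a3* and *Vldlr*, and the F test gave 7, which is 5.26% and 18.4% beside 2.2% and 11.6% of all rows. With the block 3, 8, 7 and 2 members passed the criteria, beside 6.14%, 9.38%, 13.4% and 7.21% of all rows, with *Egln3* in place of *Bnip3* and, in *aadd*, *Ldhb* in place of *Pfkm*. Same-numbered libraries correlated at -0.058, 0.054 and 0.124 (hypertrophic and proliferative), 0.066, 0.063 and 0.111 (hypertrophic and resting) and 0.051, 0.280 and -0.097 (*aadd* and resting). For hypertrophic and resting, differently numbered libraries correlated at -0.121 to 0.034, below all same-numbered ones. Outside proliferative and resting, correlations this weak or mixed cannot decide whether same-numbered libraries come from one set. The causes were not tested. Depth limits the scarcest members most, *Adm* resting on at most about 12 reads in a library.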
